A study of Homo sapiens with 6 samples.

Results

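EHD1, EHD2, EHD3 and EHD4 are the 4 members of a family of ATPases that shape endosomal and cell surface membranes, and they were examined here with 6 partners of endocytic recycling (MICALL1, RAB11A, RAB11FIP1, RAB11FIP5, RAB8A and RAB35) in HepG2 cells depleted of ARHGEF2. The 10 genes were taken by name around EHD1, and EHD1 was chosen by its FPKM values in these same 6 libraries, which were lower in the depleted cells. The values of EHD1 are therefore given as a description without a test, whereas the other genes were tested. A row was found for 9 of the 10 genes among the 27605 genes of the deposited table, and EHD3 was not analysed here.

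HepG2 is a human liver cancer line, grown in DMEM with fetal bovine serum. The control group, shNC, consisted of 3 libraries of cells that the labels call WT and that carried a control hairpin. The other group, shARHGEF2, consisted of 3 libraries of cells with ARHGEF2 knocked down by a lentiviral short hairpin RNA. The sources do not say whether all 3 shARHGEF2 libraries share 1 hairpin or whether the libraries come from separate cultures, so the p-values measure the spread between libraries, which may be technical. ARHGEF2 encodes a microtubule-associated exchange factor that activates the small GTPase RhoA. Its mRNA was measured at 13.03, 14.40 and 13.95 FPKM (fragments per kilobase of transcript and per fixed number of mapped fragments, a level already corrected for transcript length) in shNC replicates 1 to 3 and at 4.249, 4.004 and 4.817 FPKM in shARHGEF2 replicates 1 to 3.

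Receptors taken into the cell are either degraded or returned to the surface. Return runs by a fast route from early endosomes, where Rab35 acts, or by a slow route through tubular recycling endosomes, where Rab11 and its effectors act. EHD proteins form oligomers on such membranes and remodel or cut them, and their C-terminal EH domain binds partners with a short Asn-Pro-Phe motif. EHD1 works with the scaffold MICALL1 and with Rab8 on recycling tubules, EHD2 sits at the neck of caveolae, and EHD4 acts at early endosomes.

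The EHD genes are paralogs, so it was first asked how far their transcripts can be told apart. In the GENCODE 29 coding sequences, EHD1 was 82.4% identical to EHD3, 76.0% to EHD4 and 75.8% to EHD2 over 1605 aligned bases. The following stretch of 60 bases, near the 3′ end of the coding sequence, is shown because it was the ungapped window in which EHD1 was most like the other 3 genes. Bases in capitals differ from EHD1.
EHD1: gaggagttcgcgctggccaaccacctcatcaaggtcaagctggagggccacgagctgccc
EHD2: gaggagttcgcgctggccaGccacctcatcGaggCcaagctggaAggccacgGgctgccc
EHD3: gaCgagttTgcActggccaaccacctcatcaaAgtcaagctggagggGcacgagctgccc
EHD4: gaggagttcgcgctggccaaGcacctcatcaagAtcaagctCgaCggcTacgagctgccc

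The window lies in the last exon of each gene, and EHD2, EHD3 and EHD4 each had 5 mismatches to EHD1 in it. In EHD1-201 it covers coding bases 1495 to 1554 in exon 5 of 5, at chr11:64854384-64854443 on the minus strand of GRCh38. In EHD2-201 it lies at chr19:47741310-47741369 on the plus strand, in EHD3-201 at chr2:31266591-31266650 on the plus strand and in EHD4-201 at chr15:41900708-41900767 on the minus strand. The longest exact run that EHD1 shared with EHD2 was 29 bases and with EHD4 26 bases. With EHD3 it was 54 bases, and this run is shown because it is the longest between any pair of the 4 coding sequences.
EHD1 and EHD3: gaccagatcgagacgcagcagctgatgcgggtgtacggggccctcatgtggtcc

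Each of these runs is shorter than a sequenced read of 150 bases. Of the 31-base words in the 6 transcripts listed for EHD1, 0.372% occurred in a transcript of another gene, and EHD3 was the 1 gene that shared them. The value was 4.04% for EHD2 and 3.40% for EHD4. None of the 3 genes that shared the most words with EHD2 or EHD4 was an EHD gene. Among the partners the share was 0% for RAB35, 0.315% for RAB11FIP5, 3.12% for RAB11A, 3.31% for MICALL1, 3.72% for RAB11FIP1 and 5.69% for RAB8A. For RAB8A, HSH2D alone accounted for 3.69%. The level of RAB8A is thus the one with the largest share of sequence that the counting could assign to another gene.

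EHD1 (ENSG00000110047) promotes the exit of receptors from the recycling endosome. It was measured at 13.1, 11.2 and 13.9 FPKM in shNC replicates 1 to 3 and at 6.504, 6.005 and 5.938 FPKM in shARHGEF2 replicates 1 to 3. Every depleted library lay below every control library, an order that 9.17% of all 12291 genes tested showed, and the spread within shARHGEF2 (SD 0.310 FPKM, n = 3) was smaller than that within shNC (SD 1.39 FPKM, n = 3). The group means were 12.7 and 6.15 FPKM, a ratio of 0.483, and the log2 fold change on the log2(FPKM + 1) scale was -0.94. In bulk RNA, less EHD1 mRNA per cell and fewer cells that carry it cannot be told apart. The gap between the groups was 4.71 FPKM, from the lowest control to the highest depleted library.

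EHD2 (ENSG00000024422), the caveolar EHD protein, was the most abundant of the 9 genes in each of the 6 libraries. Its levels were 63.3, 61.3 and 67.1 FPKM in shNC and 74.1, 69.1 and 66.6 FPKM in shARHGEF2. The lowest depleted library fell within the control range, so the groups overlapped. EHD4 (ENSG00000103966), the paralog of early endosomes, was measured at 7.75, 8.85 and 9.03 FPKM in shNC and at 9.50, 10.6 and 9.71 FPKM in shARHGEF2. All 3 depleted libraries lay above all 3 controls, as they did in 11.3% of all genes tested. Neither gene passed the test over all genes. The log2 fold change of EHD2 was 0.13 (standard error 0.09, 95% confidence interval -0.07 to 0.32, adjusted p = 0.566 in limma). That of EHD4 was 0.20 (standard error 0.11, 95% confidence interval -0.05 to 0.44, adjusted p = 0.459 in limma).

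**Figure D1:**
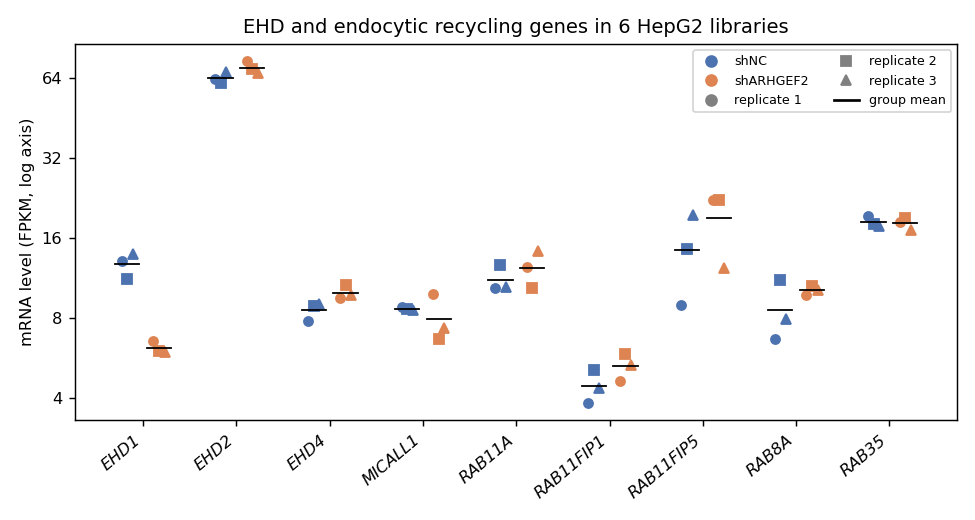
Levels of the 9 genes in FPKM on a log axis, with 1 point per library (colour for the group, shape for the replicate) and a line at each group mean. For EHD1 the depleted libraries, between 5.94 and 6.50 FPKM, sit below the controls, between 11.2 and 13.9 FPKM, whereas for RAB35 the 2 groups lie over each other.

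The make-up of the EHD mRNA pool (EHD1, EHD2 and EHD4, without EHD3) is given as a description. EHD1 was chosen for its fall, so a lower EHD1 share is largely set by that choice. EHD1 gave 15.5%, 13.8% and 15.5% of the summed FPKM of EHD1, EHD2 and EHD4 in shNC replicates 1 to 3, and 7.22%, 7.01% and 7.22% in shARHGEF2 replicates 1 to 3. For EHD2 the share of the pool was 75.02% ± 0.454 in the controls against 81.28% ± 0.854 in the depleted cells, and for EHD4 it was 10.04% ± 0.831 against 11.57% ± 0.936 (SD, n = 3 each). These shares contain EHD1, as does the ratio that follows, and neither was tested. The ratio of EHD1 to EHD4 was 1.498 ± 0.212 in the controls against 0.621 ± 0.0596 in the depleted cells (SD, n = 3 each), so that EHD1 was the more abundant of the pair in each control library and the less abundant in each depleted library.

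The pool as a whole was 85.2 ± 4.49 FPKM in the controls against 86.0 ± 3.97 FPKM in the depleted cells (SD, n = 3 each), a difference within the spread between libraries. Without EHD1, the summed FPKM of EHD2 and EHD4 was 71.0, 70.1 and 76.2 in shNC and 83.6, 79.7 and 76.3 in shARHGEF2. The means were 72.4 ± 3.27 and 79.9 ± 3.68 FPKM (SD, n = 3 each). The depleted cells were higher by 7.42 FPKM, with p = 0.1 in a two-sided exact permutation test. That is the smallest p this test allows with 3 libraries against 3, so it could not reach 0.05. It is given whenever the groups do not overlap, and 20.5% of all genes tested did not overlap in either direction. Here the highest control and the lowest depleted library, at 76.2 and 76.3 FPKM, almost met. Most of the sum is EHD2, whose own groups overlapped.

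**Figure D2:**
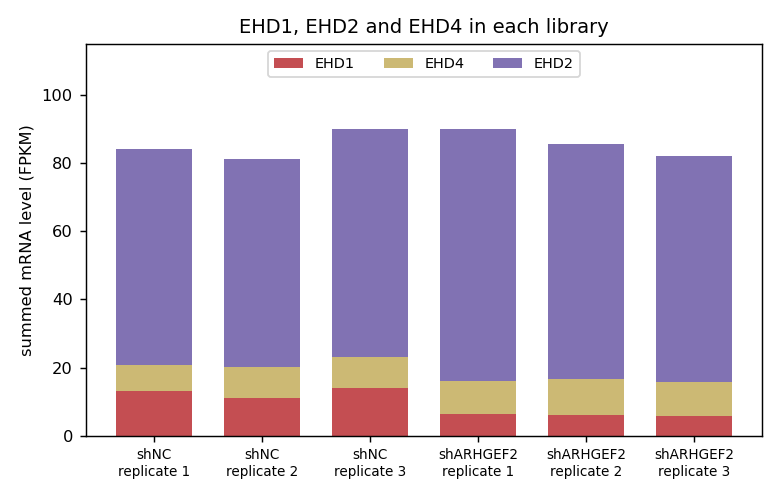
Summed FPKM of EHD1, EHD4 and EHD2 in each of the 6 libraries, as stacked bars from 0. The EHD1 segment is between 11.2 and 13.9 FPKM in shNC and between 5.94 and 6.50 FPKM in shARHGEF2, and the height of the whole bar, between 81.3 and 90.1 FPKM, does not separate the groups.

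MICALL1 (ENSG00000100139) recruits EHD1 to recycling tubules. It was measured at 8.78, 8.59 and 8.57 FPKM in shNC, the tightest group of the 9 genes with a coefficient of variation of 1.34%. In shARHGEF2 it was at 9.79, 6.67 and 7.28 FPKM, with replicate 1 above the control range and the other two below it. Its log2 fold change was -0.13 (standard error 0.14, 95% confidence interval -0.45 to 0.19, adjusted p = 0.748 in limma). RAB8A (ENSG00000167461) encodes a GTPase that acts with MICALL1 on these tubules and in transport to the surface. It was measured at 6.64, 11.1 and 7.91 FPKM in shNC and at 9.707, 10.54 and 10.19 FPKM in shARHGEF2. Replicate 2 of shNC was the highest of all 6 libraries, and the depleted libraries lay between it and the other controls. The log2 fold change of RAB8A was 0.25 (standard error 0.16, 95% confidence interval -0.12 to 0.62, adjusted p = 0.553 in limma).

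RAB11A (ENSG00000103769), the GTPase that defines the recycling endosome, was measured at 10.3, 12.6 and 10.4 FPKM in shNC and at 12.4, 10.3 and 14.3 FPKM in shARHGEF2. The ranges of the groups overlapped. Its log2 fold change was 0.14 (standard error 0.14, 95% confidence interval -0.18 to 0.45, adjusted p = 0.726 in limma). RAB11FIP1 (ENSG00000156675) and RAB11FIP5 (ENSG00000135631) encode Rab11 effectors of the same class. RAB11FIP1 was the least abundant of the 9 genes in every library, at 3.82, 5.09 and 4.36 FPKM in shNC and 4.63, 5.85 and 5.30 FPKM in shARHGEF2. The groups overlapped, with a log2 fold change of 0.21 (standard error 0.13, 95% confidence interval -0.09 to 0.51, adjusted p = 0.545 in limma).

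RAB11FIP5 was the most variable gene, with coefficients of variation of 37.1% in shNC and 30.1% in shARHGEF2. Its levels were 8.93, 14.5 and 19.6 FPKM in shNC and 22.2, 22.2 and 12.3 FPKM in shARHGEF2. Replicates 1 and 2 of shARHGEF2 lay above every control, whereas replicate 3 lay inside the control range. For the groups this gave a log2 fold change of 0.39 (standard error 0.33, 95% confidence interval -0.41 to 1.19, adjusted p = 0.670 in limma). The upper end of this interval is a 2.28-fold higher level of FPKM + 1. Single libraries moved the value, to 0.11 without shNC replicate 1, 0.64 without shNC replicate 3 and 0.66 without shARHGEF2 replicate 3.

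RAB35 (ENSG00000111737), the GTPase of the fast route, gave the narrowest interval apart from EHD2. It was measured at 19.3, 18.0 and 17.8 FPKM in shNC and at 18.4, 19.1 and 17.1 FPKM in shARHGEF2, and the highest of the 6 values was 1.12 times the lowest. Its log2 fold change was -0.01 (standard error 0.09, 95% confidence interval -0.22 to 0.20, adjusted p = 0.977 in limma).

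Of the 8 genes other than EHD1, 0 passed an adjusted p of 0.05 in limma, where 0.277% of all 12291 genes tested did. At an unadjusted p under 0.05 the count was also 0 of 8, where 13.7% of all genes tested passed. The log2 fold change was above 0 for 6 of the 8 genes and below 0 for MICALL1 and RAB35. The median of the 8 was 0.17, and that of all genes tested was -0.002. In 1 of the 8 genes, EHD4, the groups did not overlap, where 20.5% of all genes tested did not overlap in either direction. The lower ends of the 8 intervals lay between -0.45 and -0.05, so all of them exclude a log2 fold change of -0.94, the value of EHD1. This compares each interval with a value that was chosen for its size, and it is no test of the difference between genes.

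**Figure D3:**
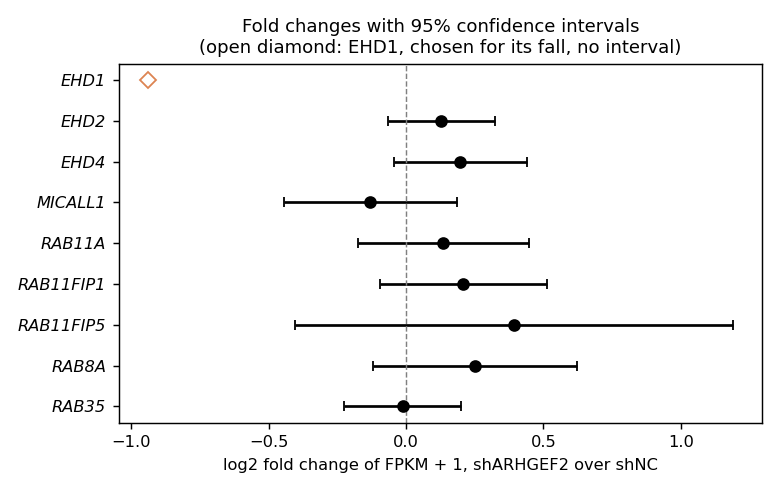
Log2 fold change of FPKM + 1 (shARHGEF2 over shNC) for the 9 genes, with 95% confidence intervals from limma. The intervals of the 8 genes other than EHD1 all contain 0, and EHD1, at -0.94, is drawn without an interval because it was chosen for its fall.

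In the control cells the order of the levels was EHD2 (63.9 ± 2.99 FPKM), RAB35 (18.4 ± 0.797), RAB11FIP5 (14.3 ± 5.32), EHD1 (12.7 ± 1.39), RAB11A (11.1 ± 1.28), MICALL1 (8.65 ± 0.116), EHD4 (8.55 ± 0.694), RAB8A (8.54 ± 2.28) and RAB11FIP1 (4.42 ± 0.636), each as mean and SD of 3 libraries. EHD2 stood above RAB35 by more than the spread of both, RAB11A above MICALL1, and RAB8A above RAB11FIP1. The ranges of RAB35, RAB11FIP5, EHD1 and RAB11A overlapped from each gene to the next, as did those of MICALL1, EHD4 and RAB8A. EHD1 held rank 3, 5 and 4 among the 9 genes in shNC replicates 1 to 3 and rank 8 in each of the 3 shARHGEF2 libraries.

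Genes that followed EHD1 most closely over the 6 libraries were sought among 3968 other genes whose mean reached 1 FPKM with an SD of at least 0.2 on the log2(FPKM + 1) scale. The 5 highest Pearson correlations were those of CA9 (0.990), SLC6A8 (0.988), ZNF672 (0.984), HGH1 (0.983) and RPL36 (0.982). The 6 points share the group difference, and in each of the 5 genes every depleted library lay below every control library. That order follows from picking genes for their likeness to EHD1, and 9.17% of all 12291 genes tested showed it. CA9, a carbonic anhydrase of the cell surface, was at 203 ± 5.48 FPKM in the controls against 134 ± 2.56 FPKM in the depleted cells (SD, n = 3 each). None of the 5 genes is among the recycling genes examined here.

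The wider recycling pathway was taken from 7 lists of 132 genes in all, which were all found in the table, and 116 of them reached the mean of 0.5 FPKM required for testing. Of the 116 genes, 0 rose and 0 fell at an adjusted p under 0.05 in limma, where 0.195% of all genes tested rose and 0.0814% fell. At an unadjusted p under 0.05 the counts were 5 higher and 1 lower of 116, where 996 genes higher and 682 lower of 12291 (13.7% in all) passed over all genes tested. The median log2 fold change was 0.01, with 63 genes above 0 and 53 below, and the groups did not overlap in 13.8% of the 116 genes, a smaller share than the 20.5% of all genes tested. Without shNC replicate 3, 1 gene passed. EEA1, the tether of early endosomes, and RAB11FIP2, an EHD-binding Rab11 effector, were among the 16 genes below the filter.

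Among 18 tested partners that bind EHD proteins or shape membranes, 13 had a log2 fold change above 0, and the median was 0.04. EHBP1L1, a paralog of the EHD-binding protein EHBP1, was at 21.1 ± 2.22 FPKM in the controls against 26.3 ± 0.846 FPKM in the depleted cells (SD, n = 3 each, adjusted p = 0.238 in limma). The endocytic adaptor NUMB was at 2.19 ± 0.613 against 1.57 ± 0.0366 FPKM (SD, n = 3 each, adjusted p = 0.453 in limma). CAVIN1, a coat protein of the caveolae on which EHD2 sits, was the most abundant gene of this list, at 170 ± 5.73 and 169 ± 5.03 FPKM (SD, n = 3 each). In the Rab11 branch (9 tested genes, median 0.07) the 2 genes with the smallest p were the effector RAB11FIP4 and the motor gene MYO5B (adjusted p = 0.369 and 0.681 in limma). RAB11B, the paralog of RAB11A, had 74.9 ± 3.97 and 78.7 ± 4.30 FPKM (SD, n = 3 each), a higher level than RAB11A in both groups.

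The Rab8, Rab10, Rab13 and Rab35 branch (17 tested genes) had a median of 0.04. Its smallest p belonged to ARFIP2 and to TBC1D10A, a gene for a GTPase-activating protein of Rab35, at 14.7 ± 1.08 against 17.7 ± 0.795 FPKM and 4.87 ± 1.20 against 6.92 ± 1.21 FPKM (SD, n = 3 each, adjusted p = 0.304 and 0.328 in limma). ARF6, a GTPase of surface recycling, was the most abundant, at 26.1 ± 1.92 and 26.7 ± 1.33 FPKM. The exocyst, which tethers vesicles at the surface, had a median of -0.05 over 9 genes. EXOC3 was at 12.3, 12.4 and 10.7 FPKM in shNC and at 9.59, 8.46 and 9.10 FPKM in shARHGEF2 (adjusted p = 0.210 in limma). Every depleted library lay below every control, an order that 9.17% of all genes tested showed. EXOC1 had an adjusted p = 0.624 in limma, and it reached the filter of 0.5 FPKM only through shNC (mean 0.640 FPKM, against 0.466 in shARHGEF2). For the early and fast recycling endosome (22 tested genes) the median was -0.002, and RABEP2, RAB31 and RAB5C, named by the same rule, had adjusted p between 0.371 and 0.793 in limma. Retromer, retriever and sorting nexins (25 tested genes) had a median of -0.07, with 16 genes below 0, and their smallest p were those of VPS26A and SNX1 (adjusted p = 0.442 and 0.452 in limma). SNX3 was the most abundant gene of that list, at 35.9 ± 3.19 and 44.2 ± 10.1 FPKM (SD, n = 3 each).

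**Figure D4:**
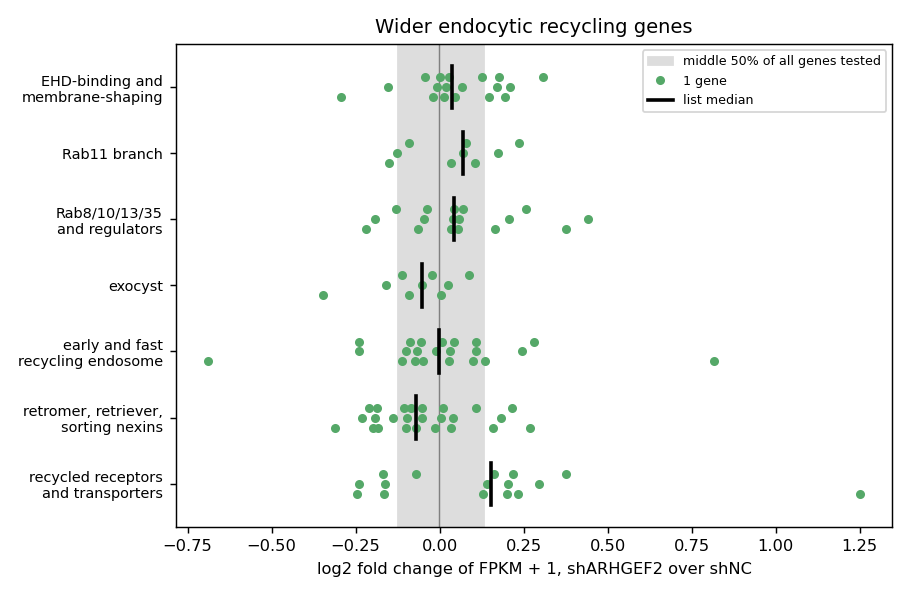
Log2 fold change of FPKM + 1 (shARHGEF2 over shNC) for the 116 tested genes of 7 recycling lists, 1 point per gene, with the list medians as black lines and the middle 50% of all 12291 genes tested shaded. The list medians run from -0.07 for retromer, retriever and sorting nexins to 0.15 for the recycled receptors.

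The cargo of the pathway, 16 recycled receptors and transporters, had a median log2 fold change of 0.15, with 10 genes above 0. LRP1, an endocytic receptor of many ligands, was at 9.40, 12.6 and 14.4 FPKM in shNC and at 15.83, 16.05 and 15.60 FPKM in shARHGEF2 (adjusted p = 0.307 in limma). The groups of LRP1 did not overlap, with every depleted library above every control, an order that 11.3% of all genes tested showed. Of the 16 genes, 4 had this order and 0 the opposite one. That is 25% without overlap, against 20.5% of all genes tested in either direction.

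HepG2 is the name in the labels, and it was set beside the levels of marker genes. Of 18 hepatocyte markers, 10 were analysed and the level of the other 8 is unknown here. Of the 10, ASGR1 and VTN were the only ones to reach 1 FPKM in any library. VTN lay between 5.51 and 6.60 FPKM, whereas AFP and HNF4A did not exceed 0.0703 and 0.0956 FPKM. APOA1, FGA and SERPINA1 did not exceed 0.248, 0.0127 and 0.0103 FPKM. Most of the analysed hepatocyte markers were thus near 0. They do not bear out the name HepG2, which rests on the labels, and the cause was not tested. Of the epithelial markers, KRT8, KRT18 and KRT19 lay between 60.4 and 216 FPKM, whereas EPCAM and CDH1 did not exceed 0.0547 FPKM. The summed level of the fibroblast list (4 of 8 genes at 1 FPKM or more) was 39.9 to 52.7 FPKM in shNC and 38.7 to 45.6 FPKM in shARHGEF2. Most of it was LUM, between 22.5 and 39.0 FPKM. The summed hepatocyte list was 6.72 to 6.96 FPKM in shNC and 7.42 to 9.08 FPKM in shARHGEF2, most of it VTN. For the endothelial list the sums were 0.659 to 0.789 and 0.870 to 0.996 FPKM, most of it PECAM1 (0.539 to 0.854 FPKM). For the leukocyte list they were 0.164 to 0.372 and 0.325 to 0.464 FPKM. No analysed gene of these last lists reached 1 FPKM. The part of these differences in the results was not tested.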

How the data were processed

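RNA of 3 shNC and 3 shARHGEF2 HepG2 libraries was sequenced in pairs of reads from strand-marked poly(A) libraries with molecular identifiers. The authors deposited FPKM per gene and library, and the submitters' processing notes name cutadapt 1.9, UMI-tools, HISAT2 2.0.4, StringTie 1.3.4d, DESeq2, edgeR and hg19, without roles. The annotation is not given in the sources used here. The authors' fold changes and p-values were not used. Sums of FPKM were 321180 to 350261 per library. At the best scaling of low FPKM values, 42.6% to 45.2% lay within 0.1 of a whole read (20% by chance), so whole reads were not recovered and depth is unknown. No count test or counting interval was used.

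Groups were compared with limma 3.58.1 (R 4.3.3, statmod 1.5.0) on log2(FPKM + 1), with trend and robust set in eBayes, over the 12291 genes whose mean reached 0.5 FPKM, and with Benjamini-Hochberg adjustment over all of them. The pseudocount of 1 pulls fold changes of low genes towards 0. The design named the sum of EHD2, EHD3 and EHD4, and EHD2 and EHD4 entered. The fit was tested on simulated data. Of 200 genes given a log2 change of 0.5, 8 were called, with 0 false calls. Of 200 genes given a change of 1, 185 were called, with 11 false calls. A change of 0.5 was thus mostly missed at this threshold. Correlations of residuals between libraries with the same number were 0.184, 0.159 and -0.105. Those between libraries with different numbers ran from -0.221 to 0.0683. Numbers 1 and 2 thus gave the highest values and number 3 did not, which leaves pairing unsettled. The main fit did not pair the libraries, and a replicate block was tried as an alternative. Coding sequences came from GENCODE 29 (GRCh38) and were aligned with MAFFT 7.526, with the longest coding sequence per gene. Word sharing used exact 31-base matches, forward strand. Genomic positions refer to GRCh38 and not to the build of the files. Python 3.11.15, SciPy 1.17.1, pandas 2.3.3 and matplotlib 3.10.9 were used.

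The genes and lists were chosen with earlier results of these data known. Named were all members, ARHGEF2, in each wider list the called genes, the 2 with the smallest p and the most abundant, the 5 genes most correlated with EHD1, and the neighbours of EHD1. Some genes that this rule names are not reported here. EEA1 and RAB11FIP2 were named after their values were seen. Each library was left out in turn, and other filters, scalings and variances, a pseudocount of 0.1 and a replicate block were tried as alternatives.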

Additional observations from a re-analysis of the deposited data

How the results depend on the processing

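EHD1 was lower in shARHGEF2 cells under all 13 alternatives, with a log2 fold change between -1.03 and -0.88. Of the other 8 genes, 0 were called under any of the 13 alternatives in limma. At an unadjusted p under 0.05 the count was 0 except for RAB8A without shNC replicate 2 (log2 fold change 0.43, adjusted p = 0.289 in limma) and MICALL1 without shARHGEF2 replicate 1 (-0.28, adjusted p = 0.406 in limma). RAB35 changed sign near 0, to 0.024 after rescaling every library to the same FPKM sum and to 0.021 and 0.027 without shNC replicate 1 and without shARHGEF2 replicate 3, and it lay between -0.045 and 0.027 over the fits that left out 1 library. The direction of each other gene was kept, over ranges of 0.09 to 0.17 for EHD2, 0.14 to 0.25 for EHD4, -0.28 to -0.03 for MICALL1, 0.03 to 0.25 for RAB11A, 0.13 to 0.30 for RAB11FIP1, 0.11 to 0.66 for RAB11FIP5 and 0.10 to 0.43 for RAB8A. The lowest RAB8A value was that without shNC replicate 1, the lowest RAB11A value that without shARHGEF2 replicate 3 and the MICALL1 value nearest 0 that without shARHGEF2 replicate 2. The number of wider recycling genes called was 0 or 1 when each library was left out, with 1 without shNC replicate 3, and 0 otherwise. The difference in summed EHD2 and EHD4 was 5.54 to 9.29 FPKM higher in shARHGEF2 when each library was left out. Over all genes, 34 were called, and this count was 0 with the replicate block (1976 at an unadjusted p under 0.05), 1 with no filter beyond a value above 0, 54 with at least 1 FPKM in 3 or more libraries, 19 with quantile normalization and 7 without trend and robust variances. It was 6 without shARHGEF2 replicate 3, 102 without shNC replicate 3 and 13 to 15 without any other library. The cause was not tested. The block changed no call of the 8 genes or of the wider lists. With it, 14 of the 116 wider genes had an unadjusted p under 0.05 in limma, against 6 of 116 in the main fit. Depth is unknown, so no limit from counting could be set.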

Other observations

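On chromosome 11, the nearest analysed genes on the 2 sides of EHD1 in RefSeq (GRCh38.p14) were CDC42BPG and MEN1 on the side of lower coordinates and MIR194-2HG and ATG2A on the other, and 0 of the 4 overlap EHD1. CDC42BPG, a gene for a kinase that binds the GTPase Cdc42, was at 0.378, 0.498 and 0.366 FPKM in shNC and at 0.674, 0.615 and 0.702 FPKM in shARHGEF2. All 3 depleted libraries were higher than the controls, the opposite order to EHD1 and one that 11.3% of all genes tested showed. CDC42BPG did not pass the test over all genes (log2 fold change 0.24, standard error 0.10, adjusted p = 0.358 in limma). It is a low gene that reached the filter of 0.5 FPKM only through the depleted libraries (mean 0.663 FPKM, against 0.414 in shNC). Its test is therefore not independent of the filter. MEN1 was at 8.88 ± 2.30 FPKM in the controls against 8.08 ± 1.79 FPKM in the depleted cells (SD, n = 3 each). ATG2A, a lipid transfer protein gene of autophagy, was at 10.0 ± 0.863 and 11.7 ± 1.67 FPKM (SD, n = 3 each), and MIR194-2HG did not exceed 0.0137 FPKM in any library. The groups overlapped in these 3 genes, unlike in EHD1.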
